A study of Homo sapiens with 6 samples.

Results

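Elastic fibres are the stretchable part of the extracellular matrix, and 10 genes of their core and scaffold were followed here in neuroblastoma cells with and without overexpression of DLX5. The genes encode elastin (ELN), the fibrillins FBN1 and FBN2, the microfibril-associated proteins MFAP2 and MFAP4, the fibulins FBLN1, FBLN2 and FBLN5, and the lysyl oxidases LOX and LOXL1. They were taken by gene name, and all 10 were found among the 58735 genes of the count table and passed the filter on low counts. The set was chosen by earlier results of the same contrast, the fitted changes in gene counts between DLX5 and control libraries, so the members' differences in it are given as a description and support nothing further.

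The cells were SY5Y, a human neuroblastoma line grown in DMEM/F12 with 10% fetal bovine serum. One group of 3 libraries came from a line built to overexpress DLX5, a homeodomain protein that binds DNA and is known from bone and limb development. The other group of 3 libraries was labelled control. The vector, the number of clones and the nature of the control are not given in the sources used here, nor whether each library had its own culture. The p-values therefore rest on the spread among 6 libraries, and that spread may be technical.

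An elastic fibre has a core of cross-linked elastin and a mantle of microfibrils. Fibrillins polymerise into the microfibrils, MFAP proteins decorate them, fibulins bridge tropoelastin, the soluble precursor, to the scaffold, and lysyl oxidases oxidise lysine side chains so that elastin and collagen chains become cross-linked. Smooth muscle cells and fibroblasts are the usual producers, and the fibrillin scaffold also holds latent growth factors of the TGF-beta family.

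Libraries held 14644077 to 16886026 counted reads. DLX5 itself stood at 1582, 1569 and 1677 CPM (counts relative to library size after TMM scaling) with DLX5 overexpression and at 12.4, 12.3 and 13.8 CPM in the controls, so each library matched its label. All 10 markers of sympathoadrenal neuroblasts fixed for this check, among them HAND2 and DBH, were at 1 CPM or more in the controls. All 10 were called lower with DLX5 (edgeR, adjusted p under 0.05), as were 28.8% of all tested genes. The summed level of the 10 markers went from between 4165 and 4595 CPM to between 1663 and 1792 CPM. HAND2 shares 867 exon bases with HAND2-AS1 on the other strand. HAND2-AS1 had 15777 reads with DLX5 and 25515 in the controls, against 31415 and 58922 for HAND2. In bulk RNA, fewer cells of a type and less RNA per cell cannot be told apart.

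The sources used here held RefSeq promoter sequences (GRCh38.p14) for 8 of the 10 genes, and none for ELN and MFAP4. The fibrillin pair is shown because its members rose by very different amounts. Each window is the 250 bases before the RefSeq start, on the minus strand and written 5′ to 3′, with matches to any of the searched motifs in capitals. FBN1 lies at chr15:48644971-48645220 and FBN2 at chr5:128538246-128538495, and both windows lie inside the gene's GENCODE 29 span, between annotated exons.
FBN1: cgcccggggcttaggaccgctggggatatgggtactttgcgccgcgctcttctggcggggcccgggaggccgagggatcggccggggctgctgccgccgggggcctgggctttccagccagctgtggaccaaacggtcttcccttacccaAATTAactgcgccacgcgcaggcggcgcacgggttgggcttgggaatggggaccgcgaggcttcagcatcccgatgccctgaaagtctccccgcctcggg
FBN2: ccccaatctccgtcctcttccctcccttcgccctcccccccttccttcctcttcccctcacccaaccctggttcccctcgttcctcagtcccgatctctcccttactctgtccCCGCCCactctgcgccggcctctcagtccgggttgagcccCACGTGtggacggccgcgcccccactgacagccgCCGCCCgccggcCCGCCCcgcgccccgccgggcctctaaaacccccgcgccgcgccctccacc
The motifs were searched on both strands: TAATT, the core bound by homeodomains; CACGTG, the E-box bound by MYC and MYCN; GGGCGG, the GC box; and TATAAA, the TATA box. FBN1 held TAATT as its reverse complement, 100 bases before the start, and FBN2 held CACGTG 97 bases before the start and 3 GC boxes. Of the 8 windows, 2 held TAATT (FBN1 and FBLN1), against 23.1% of all 35116 windows of this length. CACGTG was found in 1 of 8 against 6.34% of all, GGGCGG in 5 of 8 against 42.6%, and TATAAA in 0 of 8 against 10.7%. Annotated exons cover 51 bases of the FBLN1 window, 139 of FBLN5, 101 of LOX and all 250 of LOXL1. The TAATT of FBLN1 and the GC boxes of FBLN5 and LOX lie in such exon bases. The GC content of the 8 windows ran from 46.8% (MFAP2) to 80.4% (FBLN2), against a median of 58.0% over all windows. Matches of different motifs did not overlap each other, and a match is a description of these letters only.

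With DLX5, elastin had the highest level per length of the 10 genes. ELN (ENSG00000049540, chromosome 7, 74027789 to 74069907, plus strand, GRCh38), which encodes tropoelastin, was at 2082, 1893 and 2068 FPKM (fragments per kilobase of gene length, scaled to the library's depth) in the DLX5 libraries. In the controls it was at 69.1, 62.1 and 65.9 FPKM. Every DLX5 library stood far above every control, and the spread within either group was small beside the gap. The fitted log2 fold change was 4.94 ± 0.08 (standard error), or 30.7-fold. ELN reads made up 1.20% to 1.36% of all counted reads with DLX5 and 0.0418% to 0.0464% in the controls. Ranked by mean FPKM among 19938 protein-coding genes outside the mitochondrial chromosome, ELN was at place 1 with DLX5, also in each of the 3 libraries, and at place 432 in the controls. ELN-AS1 shares 165 exon bases with ELN on the other strand and went from 18 to 474 counts over 3 libraries, against 646285 for ELN with DLX5. The sources used here do not say if counting was by strand, and without it reads in the shared bases cannot be told apart.

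**Figure D1:**
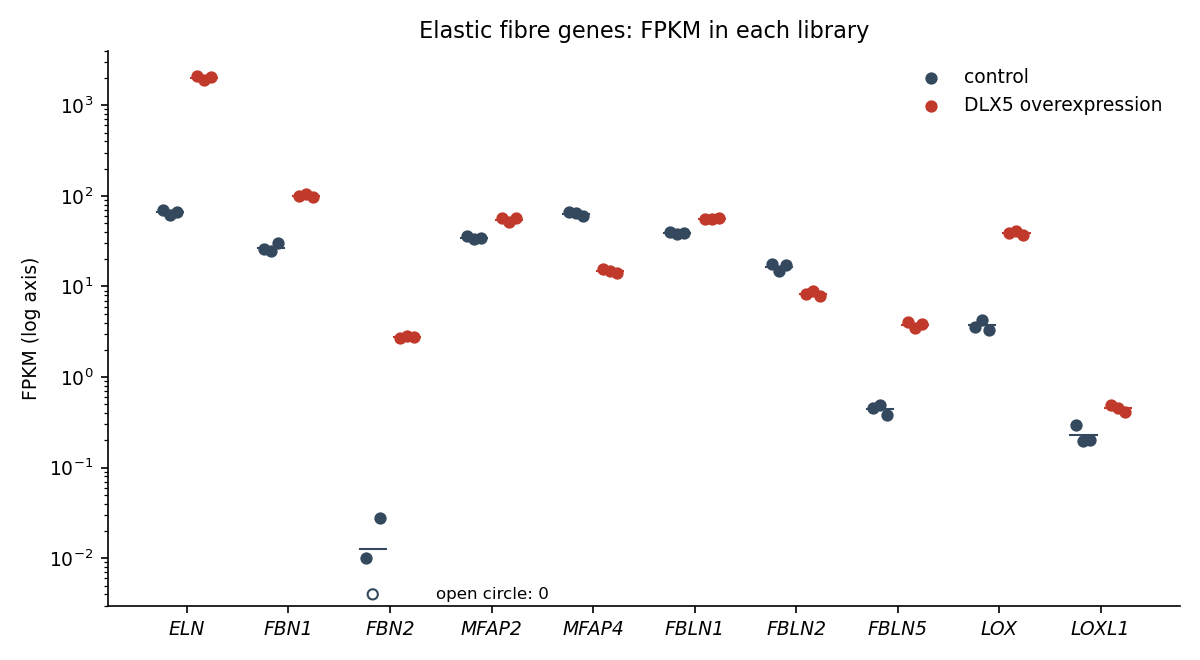
Deposited FPKM of the 10 elastic fibre genes on a log axis, with a point for each library, a line at the mean of 3 and an open circle at the bottom for a value of 0. ELN at 1893 to 2082 FPKM stands above all other members with DLX5, FBN2 goes from near 0 to 2.71 to 2.87 FPKM, and MFAP4 and FBLN2 are the genes whose DLX5 points lie below the controls.

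The fibrillins form the microfibril that elastin is laid on. FBN1 (ENSG00000166147, chromosome 15, 48408306 to 48645849, minus strand), the main fibrillin of adult tissue and the gene mutated in Marfan syndrome, was at 101, 106 and 96.1 FPKM with DLX5. Its control libraries were at 26.0, 24.5 and 30.2 FPKM. The groups did not overlap, and the log2 fold change was 1.91 ± 0.07 (SE). FBN2 (ENSG00000138829, chromosome 5, 128257909 to 128659185, minus strand), the fibrillin best known from embryonic tissue, was at 2.71, 2.87 and 2.74 FPKM with DLX5. The controls held 2, 0 and 6 FBN2 reads, or 0.0101, 0 and 0.0275 FPKM, and a count of 0 allows up to 3 reads. Summed over each group, 1791 reads stood against 8, a ratio of scaled counts of 222 with an exact 95% binomial interval of 112 to 514 that covers counting error only. The fitted log2 fold change of FBN2 was 7.73 ± 0.23, and this SE is smaller than the counting error. Without control replicate 3 it was 9.02, and without control replicate 2 it was 7.13. SLC27A6 shares 56 exon bases with FBN2 on the other strand, and it moved the other way, from 16.8 ± 1.75 to 10.3 ± 1.98 CPM (SD, n = 3). It had 807 reads in the controls beside the 8 of FBN2.

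Although FBN2 rose the most in fold terms, FBN1 still supplied nearly all fibrillin message. FBN2 made up 2.62%, 2.65% and 2.77% of the summed fibrillin FPKM in the DLX5 libraries. In the controls its share was 0.0388%, 0% and 0.0912%. The level of ELN relative to FBN1 was 2.18 to 2.66 in the controls and 17.9 to 21.5 with DLX5 (ratio of FPKM, chosen after the values were seen). The elastin message thus grew more than that of FBN1.

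The proteins that sit on microfibrils split. MFAP2 (ENSG00000117122, chromosome 1, 16974502 to 16980835, minus strand), also called MAGP1, binds fibrillin and growth factors of the TGF-beta family. It was at 56.4, 51.0 and 56.6 FPKM with DLX5 and at 36.4, 33.8 and 33.9 FPKM in the controls, a log2 fold change of 0.66 ± 0.06 (SE). MFAP4 (ENSG00000166482, chromosome 17, 19383442 to 19387240, minus strand), a fibrinogen-related protein that binds elastin and fibrillin, went the other way. It was at 15.7, 14.7 and 14.1 FPKM with DLX5 and at 66.4, 64.1 and 60.1 FPKM in the controls. All 3 DLX5 libraries lay below all 3 controls, and the log2 fold change was -2.10 ± 0.07, or 4.28-fold lower. MAPK7 shares 103 exon bases with MFAP4 on the other strand and fell by 0.47 ± 0.08 on the log2 scale. It had about as many reads as MFAP4 with DLX5, 1492 against 1564, and 2038 against 6609 in the controls. Per length MAPK7 was lower with DLX5, at a mean of 5.86 FPKM against 14.8 for MFAP4. In the controls MFAP4 was the larger part of the MFAP2 and MFAP4 message, at 63.9% to 65.5% of their summed FPKM. With DLX5 it was the smaller part, at 19.9% to 22.4%. The ratio of ELN to MFAP4, chosen after the values were seen, was 1.03 ± 0.0643 in the controls and 136 ± 9.63 with DLX5 (FPKM, SD, n = 3).

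The fibulins also moved in different directions. FBLN5 (ENSG00000140092, chromosome 14, 91869412 to 91947987, minus strand) binds tropoelastin, integrins and LOXL1 and is needed for elastic fibre assembly in mice. It was at 4.10, 3.46 and 3.81 FPKM with DLX5 and at 0.455, 0.490 and 0.377 FPKM in the controls, a log2 fold change of 3.11 ± 0.15 (SE). FBLN1 (ENSG00000077942, chromosome 22, 45502238 to 45601135, plus strand), found inside the elastin core, was at 56.0, 55.1 and 57.6 FPKM with DLX5. The controls were at 40.4, 37.6 and 38.8 FPKM, so the rise of 0.53 ± 0.06 on the log2 scale was small but larger than the spread between libraries. FBLN2 (ENSG00000163520, chromosome 3, 13549131 to 13638422, plus strand), which lies between core and microfibrils, was at 8.26, 8.83 and 7.95 FPKM with DLX5. Its controls were at 17.9, 14.9 and 17.1 FPKM, and its log2 fold change was -0.99 ± 0.08.

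FBLN1 remained the main fibulin of the 3, at 69.6% ± 1.24 of their summed FPKM in the controls and 82.2% ± 0.698 with DLX5 (SD, n = 3). The FBLN2 share went from 29.6% ± 1.36 to 12.2% ± 0.825. FBLN5 went from 0.790% ± 0.128 to 5.54% ± 0.435, so it was still the least abundant of the 3 despite the largest fold change among them.

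The cross-linking enzymes are copper-dependent amine oxidases. LOX (ENSG00000113083, chromosome 5, 122063195 to 122078360, minus strand), which acts on collagen and elastin, was at 39.1, 40.9 and 37.4 FPKM with DLX5. It was at 3.57, 4.31 and 3.27 FPKM in the controls, and the groups stood far apart. Its log2 fold change was 3.40 ± 0.08 (SE). SRFBP1 shares 138 exon bases with LOX on the other strand. It had 452 reads against 10622 for LOX with DLX5, and 545 against 1000 in the controls. LOXL1 (ENSG00000129038, chromosome 15, 73925989 to 73952137, plus strand), an enzyme tied to elastin renewal through FBLN5, was scarce throughout. It was at 0.491, 0.459 and 0.414 FPKM with DLX5 and at 0.293, 0.196 and 0.200 FPKM in the controls, from 81 and 40 reads. Its log2 fold change of 0.99 ± 0.32 passed the threshold in edgeR (adjusted p = 0.01002) but not in DESeq2 (adjusted p = 0.0779). LOXL1-AS1 overlaps it on the other strand and went from 51 to 26 reads. LOXL1 made up 4.35% to 7.57% of the LOX and LOXL1 message in the controls and 1.10% to 1.24% with DLX5. Because ELN rose more than LOX, the ELN to LOX ratio, chosen after the values were seen, was 46.3 to 55.4 with DLX5 against 14.4 to 20.1 in the controls.

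**Figure D2:**
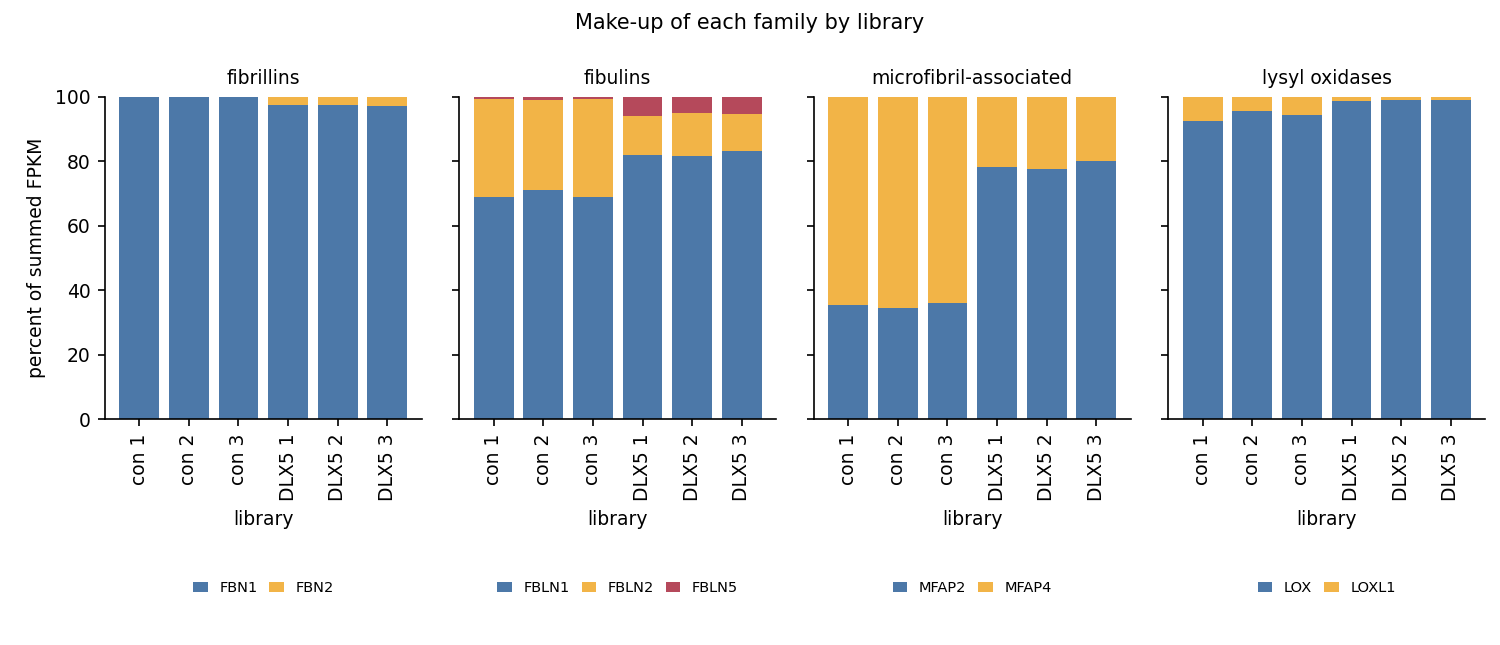
Share of each gene in the summed FPKM of its family, in percent, for the 3 control (con) and 3 DLX5 libraries. The MFAP4 bar shrinks from 63.9% to 65.5% in the controls to 19.9% to 22.4% with DLX5, FBLN5 grows from 0.790% to 5.54% on average, and FBN2 and LOXL1 stay small parts of their families.

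Across the set, 8 members rose and 2 fell with DLX5 (edgeR quasi-likelihood test, Benjamini-Hochberg adjusted p under 0.05 over all tested genes). Over all 17269 tested genes the same threshold called 58.6%, 29.8% higher and 28.8% lower. The members' library values did not overlap between groups for any of the 10, as was true of 62.5% of all tested genes. Nothing is read from these shares, since the set was proposed from this contrast. The members' median log2 fold change was 1.45, and that of all tested genes was near 0. Of all tested genes, 24 had a larger fitted rise than FBN2 and 158 a larger one than ELN. The place of FBN2 is uncertain, since its controls held 2, 0 and 6 reads. Its log2 fold change ran from 7.13 to 9.02 when a library was left out.

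**Figure D3:**
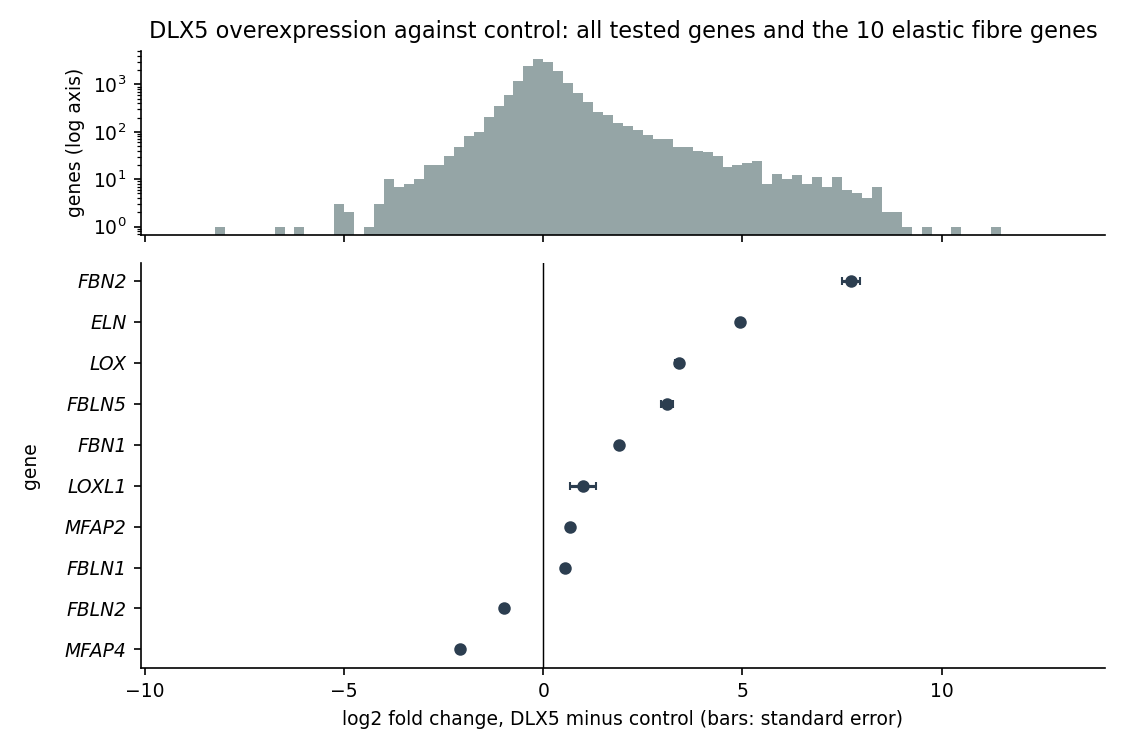
Upper panel: number of tested genes (log axis) by log2 fold change, DLX5 minus control. Lower panel: fitted log2 fold change and standard error of each elastic fibre gene, from -2.10 for MFAP4 to 7.73 for FBN2.

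Levels per gene length also changed in order. In the controls ELN at 65.7 ± 3.49 and MFAP4 at 63.5 ± 3.20 FPKM led and overlapped in their library values, followed by FBLN1, MFAP2, FBN1, FBLN2, LOX, FBLN5, LOXL1 and FBN2, none of which overlapped its neighbour. With DLX5 the order was ELN, FBN1, FBLN1, MFAP2, LOX, MFAP4, FBLN2, FBLN5, FBN2 and LOXL1. There FBLN1 at 56.3 ± 1.26 and MFAP2 at 54.7 ± 3.21 FPKM were the only neighbours whose library values overlapped. The summed FPKM of the 10 genes was 2296 ± 104 with DLX5 and 251 ± 9.35 in the controls, and without ELN it was 281 ± 3.79 against 185 ± 5.91 (SD, n = 3). ELN thus made up 87.7% ± 0.650 of the set's summed FPKM with DLX5, against 26.2% ± 0.453.

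Other genes of elastic fibre assembly and turnover were read from the same fit, in 10 lists of 87 genes that hold no member. Of the 68 that could be tested, 53 rose and 9 fell, and 6 missed the threshold. The counts of these lists and of the marker lists stand beside the 29.8% of all tested genes that were called higher and the 28.8% called lower. Their median log2 fold change was 0.77, against one near 0 over all tested genes. These lists were written with earlier results of these libraries known, and no test of a list was made.

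**Figure D4:**
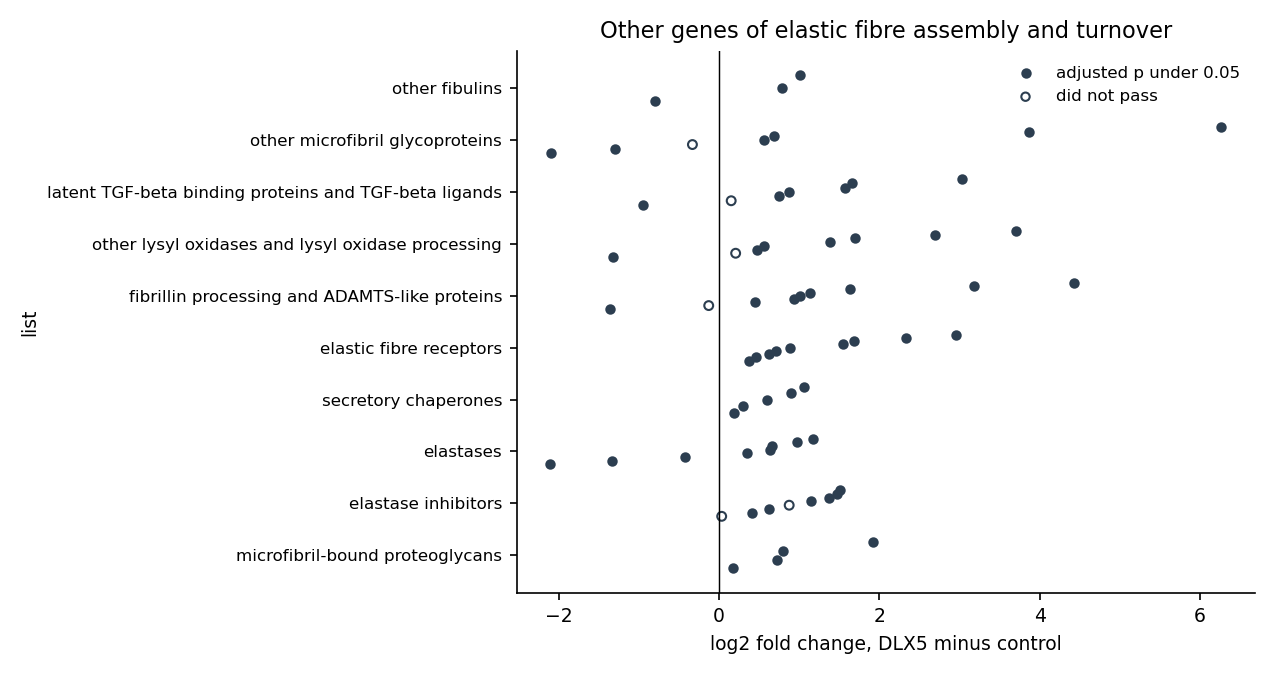
Log2 fold change, DLX5 minus control, of the 68 tested genes outside the set, by list; filled points passed at an adjusted p under 0.05 and open points did not. The rightmost point is MFAP5 at 6.27, and all tested genes of the receptor, chaperone and proteoglycan lists lie right of 0.

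Among the close relatives of the members, MFAP5, the paralogue of MFAP2 that also binds fibrillin, went from 3.89 ± 0.633 to 299 ± 3.47 CPM (SD, n = 3), a log2 fold change of 6.27 ± 0.09 (SE; edgeR, adjusted p = 7.56e-27). EFEMP2, or fibulin-4, which recruits LOX to tropoelastin, rose by 1.01 ± 0.07, and it shares 11 exon bases with MUS81. HMCN2 rose by 0.78 ± 0.10, and FBLN7 fell by 0.79 ± 0.08 on the log2 scale. EFEMP1, or fibulin-3, had 0 reads in all 6 libraries, and FBN3, the third human fibrillin, had 15 reads with DLX5 and 11 in the controls. The list of other microfibril and elastin-associated glycoproteins had 4 of 7 tested genes higher and 2 lower. EMILIN3 fell by 2.09 ± 0.14, and TNXB rose by 3.87 ± 0.33 from 14 control reads. TNXB overlaps ATF6B, which held many more counts, so its reads are uncertain.

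Of the 8 tested genes of the other lysyl oxidases and of lysyl oxidase processing, 6 rose and 1 fell. LOXL4 went from 4.60 ± 0.899 to 60.4 ± 0.827 CPM (SD, n = 3), a log2 fold change of 3.71 ± 0.11 (SE). LOXL2 rose by 1.70 ± 0.06, and BMP1, the protease that releases the LOX propeptide, rose by 1.39 ± 0.07. The member that fell was ATP7A, named after its values were seen, the copper pump that loads lysyl oxidases in the secretory pathway. Its log2 fold change was -1.33 ± 0.08, and in the annotation it overlaps PGK1, which had more reads. LOXL2 overlaps ENTPD4, which had 4907 reads against 9076 for LOXL2 with DLX5 and 4638 against 2765 in the controls.

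The latent TGF-beta binding proteins share domains with fibrillins, and with the TGF-beta ligands 5 of 7 rose and 1 fell. LTBP1 went from 33.6 ± 1.22 to 275 ± 7.0 CPM (SD, n = 3), a log2 fold change of 3.03 ± 0.07 (SE). TGFB2 rose by 1.57 ± 0.08 and TGFB1 by 1.66 ± 0.07, the latter overlapping HNRNPUL1, which had more reads. The gene that fell was TGFB3, named after its values were seen, at -0.94 ± 0.24. Of 9 tested genes of fibrillin processing and ADAMTS-like proteins, 7 rose and 1 fell. THSD4, or ADAMTSL6, which promotes fibrillin assembly, rose by 3.18 ± 0.07, ADAMTSL5 by 4.44 ± 0.20 from 30 control reads, and FURIN, which cleaves profibrillin, by 0.93 ± 0.07. ADAMTSL2, named after its values were seen, was the gene that fell, at -1.35 ± 0.10.

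All 9 tested genes of the receptor list rose. The list holds integrin subunits and also GLB1, CTSA and NEU1, which are not integrins and rose by 0.71 ± 0.07, 0.88 ± 0.06 and 0.37 ± 0.09. ITGB5 rose by 2.95 ± 0.06, ITGA5 by 2.34 ± 0.07 and ITGAV by 1.68 ± 0.07 (log2 fold change ± SE), integrin subunits that bind fibrillins, fibulins and fibronectin. All 5 chaperones of the secretory pathway rose, with SERPINH1 at 1.06 ± 0.06, P4HB at 0.90 ± 0.06 and FKBP10, which binds tropoelastin, at 0.61 ± 0.06. All 4 tested microfibril-bound proteoglycans passed as higher, led by HSPG2 (perlecan) at 1.93 ± 0.08 and BGN at 0.81 ± 0.08. VCAN, named after its values were seen, was at 0.18 ± 0.07 with overlapping libraries (edgeR, adjusted p = 0.0263). The count was 2 on both FPKM scales, at an adjusted p under 0.01, and without DLX5 overexpression replicate 1. DCN was at only 3.23 ± 0.919 against 1.96 ± 0.631 CPM (SD, n = 3), its libraries overlapped between groups, it is also a fibroblast marker, and its call was lost in 7 of 18 other settings.

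On the side of breakdown, 5 of 8 tested elastases rose and 3 fell. The summed level of the 13 elastase genes was 923 to 950 CPM with DLX5 and 1003 to 1056 CPM in the controls. MMP2, the most abundant of them, went from 612 ± 30.6 to 458 ± 5.78 CPM (SD, n = 3). CTSV, a cathepsin with strong elastase activity, fell by 2.10 ± 0.09 on the log2 scale, while CTSS rose by 1.17 ± 0.15 and MMP14 by 0.98 ± 0.10. The macrophage elastase MMP12 had 0 reads in all 6 libraries, and ELANE, the neutrophil elastase, had 2 reads in all. Of 8 tested inhibitors 6 rose and 0 fell, among them TIMP3 from 79.5 ± 3.78 to 226 ± 8.54 CPM (SD, n = 3), SERPINB1 by 1.37 ± 0.11 and TIMP1 by 1.15 ± 0.07.

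Genes whose profile over the 6 libraries lay closest to a member were found by the root mean square difference of centred log2 CPM, among protein-coding genes at 2 log2 CPM or more on average. Closest to ELN were PCDH7 (0.0978), PRDM6 (0.112) and LIPG (0.152). Closest to LOX were FAS, S100A11 and PHLDA1 at 0.0879 to 0.0941, and closest to FBLN5 were FOXO1, MATN2 and NNMT at 0.0977 to 0.111. For FBN2 the nearest were S100A10, EMP1 and DLX5, at 0.477 to 0.545, with control counts of 2, 0 and 6 behind its profile. With only 2 groups the distance mainly restates the fold change: PCDH7, PRDM6 and LIPG had log2 fold changes of 4.85, 4.85 and 4.99, against 4.94 for ELN.

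Markers of cells that usually make elastic fibres moved too. Of 7 tested fibroblast markers 6 were higher with DLX5 and 0 lower, with a summed level of 333 to 343 CPM against 190 to 204 CPM in the controls. LUM went from 6.82 ± 0.290 to 63.4 ± 1.14 CPM and FAP from 6.36 ± 0.421 to 36.2 ± 1.38 CPM (SD, n = 3). PDGFRA missed the threshold, and PDPN and TCF21 had 0 reads in every library. Of 7 tested smooth muscle markers 4 were higher and 1 lower, with sums of 803 to 827 CPM against 465 to 491 CPM. SYNPO2, the largest part of these sums, went from 245 ± 15.6 to 348 ± 10.4 CPM (SD, n = 3). LMOD1 missed the threshold at 11.2 ± 1.08 against 12.2 ± 0.187 CPM (SD, n = 3). DES had 22 reads with DLX5 and 3 in the controls and was not tested. TAGLN went from 114 ± 3.42 to 274 ± 4.03 CPM and ACTA2 from 58.2 ± 0.921 to 129 ± 8.96 CPM (SD, n = 3). TAGLN shares 446 exon bases with PCSK7, and ACTA2 shares 380 with FAS, both on the other strand. PCSK7 had 2736 reads with DLX5 and 2633 in the controls, against 13306 and 5448 for TAGLN. FAS had 1893 reads with DLX5 and 172 in the controls, against 6242 and 2797 for ACTA2. MYOCD, the regulator of the smooth muscle programme, had 0 reads in every library, and the smooth muscle myosin MYH11 was at 1.53 ± 0.323 against 1.43 ± 0.511 CPM (SD, n = 3). MYH11 shares 765 exon bases with NDE1 on the other strand, which had 2127 reads with DLX5 and 1397 in the controls against 74 and 68, so its reads are uncertain. CNN1, the calponin of smooth muscle and the marker that fell, went from 6.93 ± 0.812 to 1.97 ± 0.473 CPM (SD, n = 3). Endothelial markers summed to 8.60 to 9.81 against 4.26 to 4.39 CPM, with 2 of 5 tested higher and 0 lower. These 2 were scarce: PECAM1 went from 2 to 41 reads and TEK from 6 to 111 over 3 libraries. CLDN5, the most abundant, missed the threshold at 3.48 ± 0.0703 against 2.67 ± 0.212 CPM (SD, n = 3). CDH5 had 1 read with DLX5 and 0 in the controls. Epithelial markers summed to 13.6 to 15.8 against 3.96 to 5.83 CPM, with 2 of 4 tested higher and 1 lower. There the log2 fold change was 3.68 ± 0.28 for CDH1 and -3.68 ± 0.41 for KRT19 (SE). CDH1 had only 20 control reads, and KRT19 only 10 reads with DLX5. CLDN7, the largest part of the DLX5 sum, went from 0.652 ± 0.253 to 7.57 ± 1.34 CPM (SD, n = 3). It shares 38 exon bases with ELP5, which had 1745 reads against 369 with DLX5 and 2059 against 31 in the controls. GRHL2 had 0 reads in every library, and ESRP1 had 2 reads with DLX5 and 0 in the controls. Schwann cell markers summed to 34.0 to 36.7 against 42.8 to 49.0 CPM, yet 3 of 6 tested were higher and 2 lower. PMP22, the most abundant of them, went from a mean of 39.7 to 20.2 CPM. S100B also fell, while MBP rose by 2.68 ± 0.22 and ERBB3 by 2.32 ± 0.24, each from 51 control reads. SOX10 had 5 reads with DLX5 and 12 in the controls and was not tested. CDH19 had 0 reads in every library. Blood markers summed to at most 1.20 CPM in any library. The part of other cells in the values of the elastic fibre genes was not tested.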

How the data were processed

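Total RNA (Trizol) went into NEBNext Ultra libraries, 6 in all, per the labels' protocols. The deposited counts are whole reads per gene. HISAT2 2.0.5, featureCounts 1.5.0-p3 and hg19 are named in the submitters' processing notes, yet all 58735 genes carry the identifiers, starts and ends of GENCODE 29, so coordinates are given as GRCh38. The authors' FPKM table holds the same reads: each value is the count divided by gene length and by 0.968 to 1.03 times the total count of that library.

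Counts were fitted with edgeR 4.0.16 in R 4.3.3 (TMM factors, filterByExpr, two-sided quasi-likelihood test), which tested 17269 of 33755 genes with any count. A gene passed at a Benjamini-Hochberg adjusted p under 0.05 over all tested genes. The biological coefficient of variation was 6.17%. An exact permutation test of 3 libraries against 3 cannot give a p under 0.1. Standard errors (SE) of log2 fold changes were taken as the absolute log2 fold change divided by the root of the F statistic. CPM were computed with the TMM-scaled library sizes. The fit was tested on simulated data. Chi-square per degree of freedom between same-group libraries was 2.23 to 5.07, above sampling noise, so none was taken for a copy.

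The members, lists and rules were chosen with earlier results of these data known. Named were the 10 members, DLX5, up to 3 genes of each of the 10 pathway lists with the smallest adjusted p, and the 3 nearest profiles to ELN, FBN2, LOX and FBLN5. Genes outside that rule are VCAN, GLB1, CTSA, NEU1 and zero-read, low-read, marker, overlapping or falling genes, named after their values were seen. Alternatives were other scaling factors, DESeq2 1.42.0, limma 3.58.1 (voom, and log2 of FPKM plus 1 or 0.1), other filters, protein-coding genes only, a replicate block, an adjusted p under 0.01 and each library left out. Figures were drawn with matplotlib 3.10.9.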

Additional observations from a re-analysis of the deposited data

How the results depend on the processing

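The direction of all 10 members was the same under each of the 18 other settings, and their side of the threshold was the same in 178 of 180 cases. The exceptions were LOXL1 with DESeq2 (log2 fold change 0.99, adjusted p = 0.0779) and at an adjusted p under 0.01 (adjusted p = 0.01002), with 81 and 40 reads behind it. Members called higher numbered 7 or 8 and lower 2. Over all genes 4357 to 5487 were called higher and 4031 to 5762 lower, and in the pathway lists 50 to 56 and 9 to 10. Scaling moved the median of all genes by at most 0.07 (log2; -0.07 with library totals). Leaving out a library gave 1.84 to 2.0 for FBN1, 7.13 to 9.02 for FBN2 and 0.89 to 1.19 for LOXL1, and 0.0194% to 0.0650% for the mean control share of FBN2 among fibrillins, lowest without control replicate 3. On log2(FPKM + 1) values FBN2 was at 1.90, FBLN5 at 1.73 and LOXL1 at 0.24, since the pseudocount shrinks low genes. DCN lost its call with DESeq2, both FPKM settings, an adjusted p under 0.01, and without DLX5 overexpression replicate 1, control replicate 2 or control replicate 3, with adjusted p of 0.0195 to 0.154 in these 7 settings. Same-numbered libraries deviated together with correlations of 0.06, 0.24 and -0.15, so the numbers were not taken as pairs. With the replicate block, 5208 genes were higher and 5016 lower, and 8 and 2 of the members. Low counts limit FBN2 in the controls and LOXL1 throughout.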
